A study of Mus musculus with 10 samples.

Results

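Edn1, Ednra, Hand1, Hand2, Barx1, Lhx6, Lhx8 and Gsc are genes by which the mesenchyme of the pharyngeal arches, the paired swellings that form the jaws, is told apart from the rest of the embryonic face. They were chosen by name, as a list, and all 8 are among the 35542 genes of the count table. Their RNA was followed in 10 libraries of the frontonasal prominence (FNP), the swelling that forms the forehead and nose, taken from FVB/NJ mouse embryos at E10.5. The FNP was cut away along its border with the maxillary prominence, the upper jaw part of the first arch, so arch mesenchyme lay next to the cut. WT stands for 6 Smchd1+/+ libraries (male replicates 1 to 3 and female replicates 4 to 6). MD1 stands for 4 Smchd1MD1/MD1 libraries, homozygous for MommeD1, a loss-of-function allele of the chromatin protein SMCHD1 in every cell (female replicates 1 and 4, male replicates 2 and 3). No other allele or treatment is named for either group.

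As background, the ligand endothelin-1, encoded by Edn1, is made by arch epithelium, arch mesoderm and endothelium and binds the receptor EDNRA on neural crest cells of the arches. Signalling through the receptor turns on DLX5 and DLX6 and, further out in the lower jaw, HAND2 and HAND1, basic helix-loop-helix factors of the distal arch that also act in the heart and other mesoderm. Barx1, Lhx6 and Lhx8 encode homeodomain factors of jaw mesenchyme, with Lhx6 and Lhx8 on its oral side and in the ventral forebrain as well. Gsc encodes a homeodomain factor used in several parts of the head skeleton.

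Some facts about the libraries bear on what follows. Depth ran from 4195119 counts (MD1 male replicate 3) to 24125084, and values are given as CPM, read counts scaled to library size after TMM normalization. Smchd1 lay between 229 and 265 CPM in WT and between 55.3 and 99.9 CPM in mutants. The library labelled MD1 female replicate 1 went against its label, with the Y-linked gene Ddx3y at 88.2 CPM (78.2 to 91.4 in WT males) and Xist, the RNA of the inactive X, at 204 CPM (2590 to 2700 in WT females). On a principal component with 38.2% of the variance, MD1 female replicate 4 stood apart at -89, with the others between -8.53 and 35.7. On the next, with 25.1%, MD1 male replicate 3 stood apart at 69.5, with the others between -22.5 and 21.2. The 10 genes of the frontonasal list summed to between 1350 and 1900 CPM in WT and between 953 and 1620 CPM in MD1. Of the 5 Hox genes that mark the second and more posterior arches, Hoxa2 and Hoxd3 had 0 reads in every library, and all 5 together reached 0.0407 CPM at most in WT and 1.29 CPM in MD1.

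The 8 genes differed widely in level and spread. On average in WT, Ednra was the most abundant, Edn1 the least abundant of the genes read in every library, and Gsc lay between them. Barx1, Lhx6 and Lhx8 varied together between WT libraries. Hand1 and Hand2 were at or next to 0 outside 2 of the libraries. On the deposited log2 RPKM scale, which corrects for transcript length, the WT order was Ednra (3.75 ± 0.19), Lhx8 (2.64 ± 1.15), Gsc (2.07 ± 0.48), Barx1 (1.98 ± 1.59), Lhx6 (0.93 ± 1.14) and Edn1 (-0.87 ± 0.44; SD, n = 6 for each). Among Lhx8, Gsc and Barx1, neighbours in this order changed places between WT libraries. Barx1 lay above Lhx6 in each WT library, though their ranges overlapped (0.29 to 4.07 against -0.40 to 2.55). Ednra lay above Gsc in every WT library (3.55 to 4.09 against 1.5 to 2.86), but its range overlapped those of Lhx8, which ran from 1.24 to 4.00, and of Barx1. In WT male replicate 3, Lhx8 (4.00) and Barx1 (4.07) lay above Ednra (3.81). They also did in WT female replicate 6 (3.67 and 3.71 against 3.65). Edn1, at -1.64 to -0.49, lay below the whole range of Lhx6, -0.40 to 2.55.

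**Figure D1:**
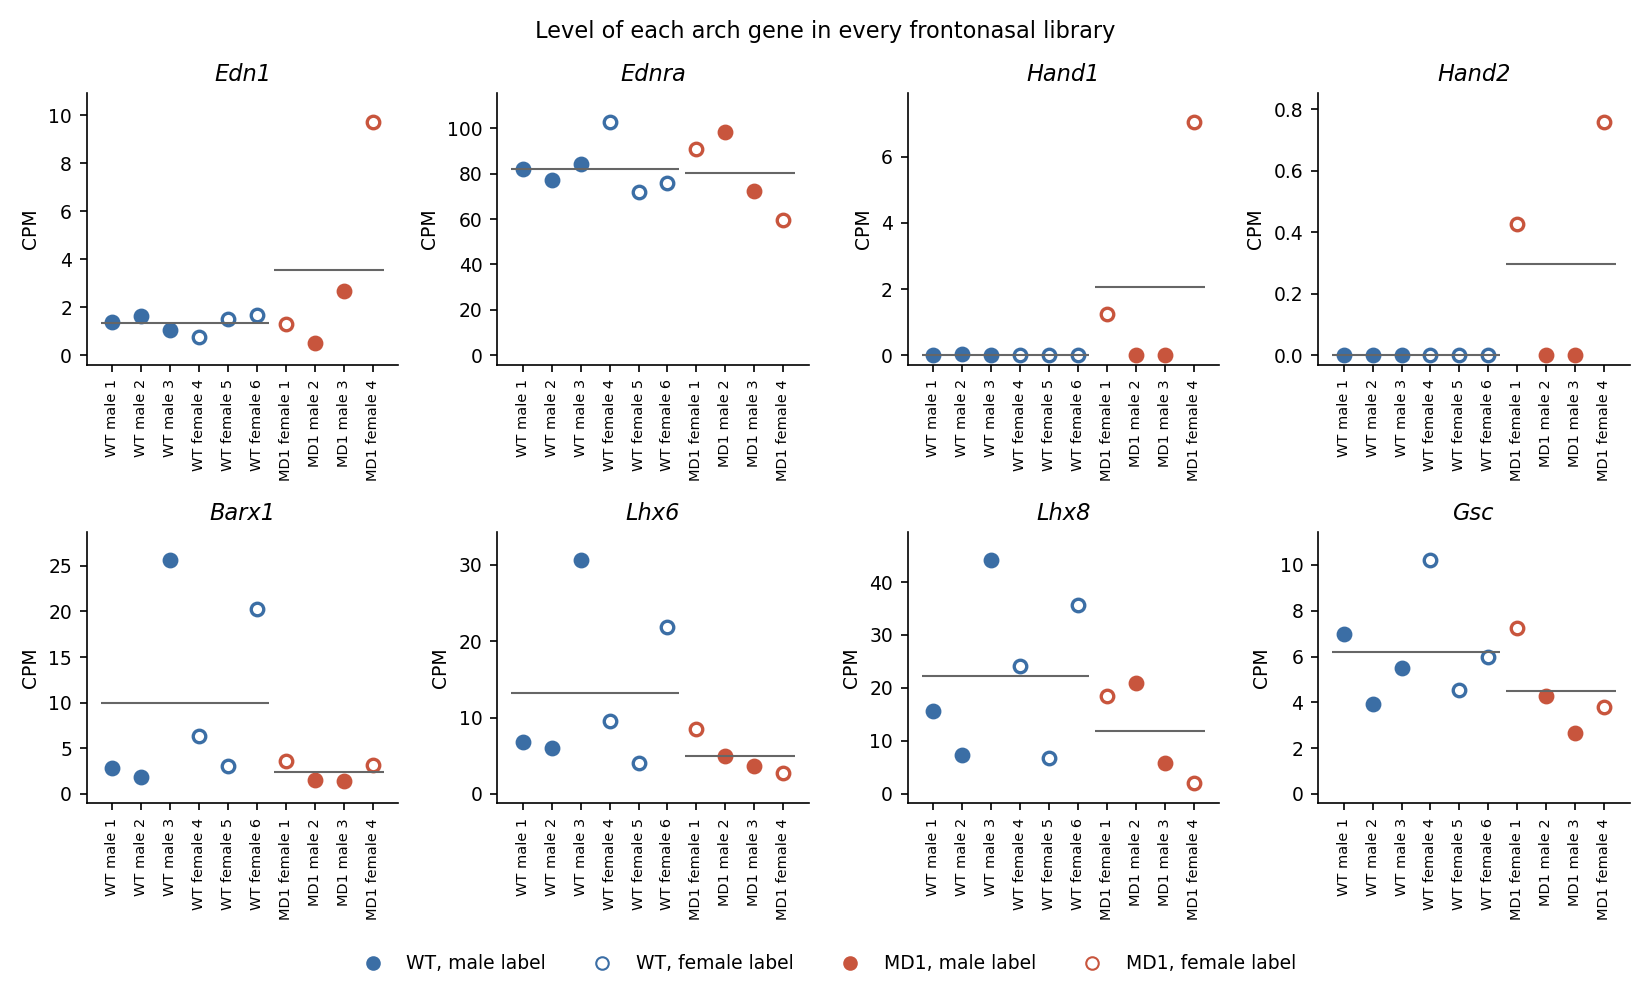
Level of each of the 8 genes in CPM (vertical axes, each starting at 0 and with its own scale) in the 10 libraries (horizontal axes). Blue marks WT and red MD1, filled points carry a male label and open points a female label, and grey lines are group means. Barx1, Lhx6 and Lhx8 are highest in WT male 3 and WT female 6, and Hand1 and Hand2 stand clear of 0 in both libraries labelled MD1 female.

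Between the genotypes, 0 of the 6 genes that could be tested passed the threshold. Hand1 and Hand2 did not pass the filter on low counts. The test was edgeR's quasi-likelihood test over 15452 autosomal genes with Benjamini-Hochberg adjustment at 0.05, which called 12 genes in all, 0.0777% of those tested (11 higher in MD1, 0.0712%, and 1 lower, 0.00647%). Before adjustment, p was under 0.05 for 3 of the 6 members (Barx1, Lhx6 and Edn1), where 9.79% of all tested genes met that mark (6.41% higher and 3.38% lower in MD1). DESeq2 and limma-voom also called 0 of the 6, with 3 and 0 below 0.05 before adjustment. The median log2 fold change of the 6 was -0.64, beside 0 for all tested genes. The libraries of the genotypes overlapped for all 6, while they did not overlap for 2.05% of tested genes. Fewer cells of a kind and less RNA per cell cannot be told apart in such bulk samples.

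**Figure D2:**
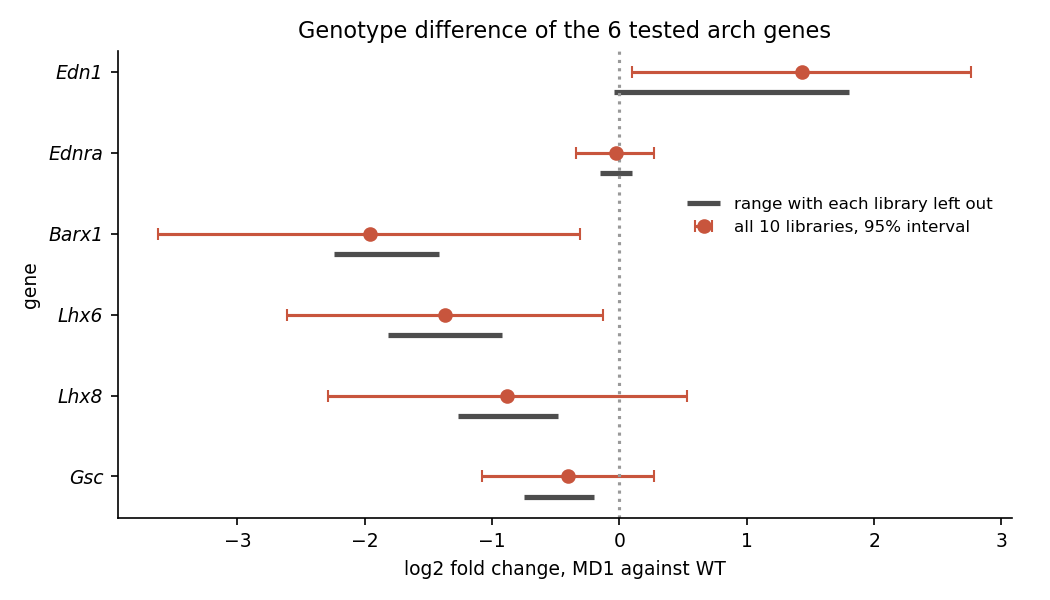
Log2 fold change of MD1 against WT (horizontal axis) for the 6 tested genes (vertical axis), with the 95% interval of the edgeR fit (red) and, below it, the range of the estimate when each library was left out in turn (grey). The Edn1 range reaches -0.04, and the Ednra range runs from -0.15 to 0.10, across 0.

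Barx1, which encodes a homeodomain factor of the mesenchyme around the molar teeth, had the widest fold range of the 6 in WT. In WT libraries 1 to 6 it stood at 2.80, 1.88, 25.6, 6.34, 3.03 and 20.3 CPM, and in MD1 at 3.61, 1.5, 1.45 and 3.12 CPM (in the order female replicate 1, male replicates 2 and 3, female replicate 4, which is kept below). WT male replicate 3 and WT female replicate 6 stood far above the rest, and the remaining 4 WT libraries overlapped with MD1. The log2 fold change was -1.96 (standard error 0.76, 95% interval -3.62 to -0.31, edgeR adjusted p = 0.496). Without WT male replicate 3 the fold change was -1.42.

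Lhx6, a LIM homeodomain gene, followed the same libraries. It measured 6.77, 6.05, 30.6, 9.61, 4.07 and 21.9 CPM in WT and 8.51, 4.99, 3.62 and 2.74 CPM in MD1. Again WT male replicate 3 and WT female replicate 6 were highest, and the other 4 WT libraries lay among or just above those of MD1. Its log2 fold change came to -1.37 (standard error 0.57, 95% interval -2.61 to -0.13, edgeR adjusted p = 0.498), and -0.92 without WT male replicate 3. With that library left out, 0 of the 6 members had a p under 0.05 before adjustment.

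Lhx8, the close relative of Lhx6, measured 15.7, 7.29, 44.1, 24.1, 6.72 and 35.6 CPM in WT. In MD1 it measured 18.5, 21.0, 5.80 and 1.98 CPM. The highest libraries were once more WT male replicate 3 and WT female replicate 6, while the first pair of MD1 libraries lay inside the WT range and the last pair below it. The log2 fold change was -0.88 (standard error 0.65), and its 95% interval ran from -2.29 to 0.53 (edgeR adjusted p = 0.616). With each library left out in turn it ranged from -1.27 (without MD1 male replicate 2) to -0.48 (without MD1 female replicate 4).

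These 3 genes lie on different chromosomes in GRCm38, the build of the count table. Barx1 (ENSMUSG00000021381, 4 merged exon blocks) is on the plus strand at chr13:48662998-48666507. Lhx6 (ENSMUSG00000026890, 12 blocks) is on the minus strand at chr2:36081953-36105408, and Lhx8 (ENSMUSG00000096225, 10 blocks) on the minus strand at chr3:154306294-154330659. Because the 3 varied together, the sequence just upstream of their outermost annotated starts is set out here from RefSeq promoter windows (GRCm38.p6), read 5′ to 3′ on the strand of the gene, with each CpG in capitals. The Lhx8 stretch is chr3:154330660-154330810 (minus strand), the Lhx6 stretch chr2:36105409-36105658 (minus strand) and the Barx1 stretch chr13:48662786-48662997 (plus strand).
Lhx8: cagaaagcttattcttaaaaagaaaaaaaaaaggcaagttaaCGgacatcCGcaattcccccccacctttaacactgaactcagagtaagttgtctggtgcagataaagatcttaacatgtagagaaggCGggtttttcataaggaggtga
Lhx6: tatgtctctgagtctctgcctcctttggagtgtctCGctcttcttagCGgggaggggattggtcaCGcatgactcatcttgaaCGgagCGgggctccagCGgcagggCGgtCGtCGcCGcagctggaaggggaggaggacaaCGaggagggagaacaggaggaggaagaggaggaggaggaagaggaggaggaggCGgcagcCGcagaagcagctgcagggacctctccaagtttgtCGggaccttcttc
Barx1: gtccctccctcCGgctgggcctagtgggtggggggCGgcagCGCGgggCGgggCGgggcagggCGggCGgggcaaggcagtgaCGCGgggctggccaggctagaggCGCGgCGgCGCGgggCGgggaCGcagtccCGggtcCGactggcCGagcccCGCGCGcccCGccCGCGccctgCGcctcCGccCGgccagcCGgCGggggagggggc

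The 3 stretches shared little in composition. The Lhx8 stretch of 151 bases held 3 CpG and 39.7% G or C, the Lhx6 stretch of 250 bases held 14 CpG and 61.6%, and the Barx1 stretch of 212 bases held 31 CpG and 85.4%. Over the full windows of 300 bases (250 before the start and 50 after), the G and C content of Lhx8 was 47.0%, at the 28.4 percentile of 32851 promoters, that of the outermost Lhx6 start 63.3%, at the 78.4 percentile, and that of Barx1 84.7%, at the 99.8 percentile. At least 1 CpG was present in 94.6% of all windows. RefSeq windows were matched for 7 of the 8 genes, with 3 starts for Lhx6. In a search of both strands, the letters ACGTG (in 19.6% of all windows) occurred in those of Edn1 and Hand2, TAATTA (5.29%) in that of Hand2, and TATAAA (13.6%) in that of Gsc and of the third Lhx6 start. None of these 3 motifs occurred in the window of Barx1, of Lhx8 or of the outermost Lhx6 start.

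The Lhx8 stretch is most of the gap of 161 bases between Lhx8 and AI606473, a noncoding gene read in the opposite direction. AI606473 measured 4.09, 2.20, 21.4, 10.4, 2.93 and 14.4 CPM in WT and 8.70, 7.28, 0.725 and 0 CPM in MD1. Its order followed that of Lhx8 closely, with the same pair of WT libraries on top and 0 of its reads in MD1 female replicate 4. The genes share 0 exon bases.

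The spread among WT libraries was wide for Barx1, Lhx6 and Lhx8 when set beside genes of like level. Their coefficients of variation over the 6 WT libraries were 103%, 80.9% and 68.7%, where the median tested gene had 10.8%. Among the 1450, 1625 and 1958 genes within 0.5 log2 units of their WT level, these values lay at the 99.8, 99.8 and 99.9 percentiles. The highest WT library exceeded the lowest by 13.6-fold for Barx1, 7.53-fold for Lhx6 and 6.57-fold for Lhx8. By the same measure Gsc had a coefficient of 36.2% (94.4 percentile), Ednra 13.6% (92.3 percentile) and Edn1 27.0% (35.8 percentile). WT male replicate 3 and WT female replicate 6 differ in sex and replicate number; they held 24125084 and 13440649 counts.

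Those libraries were the highest 2 of all 10 for 345 of the 15452 tested genes, 2.23%, and for 3 of the 8 members. The pair was picked from the order of Barx1, Lhx6 and Lhx8, so the 3 members cannot be weighed against that share. Of the 10 genes listed for the proximal (upper jaw) part of the first arch, Dlx1 and Dlx2 showed the same order. Dlx1 measured 53.2 and 41.2 CPM there against 7.60 to 38.8 CPM in the other 8, and Dlx2 measured 36.4 and 35.0 CPM against 11.3 to 25.8 CPM. Both encode homeodomain factors made throughout the first arch, Dlx1 and Dlx2 being neighbours in the genome. No gene of the distal arch list (0 of 14), 1 of 8 in the arch epithelium list (Pax1, 0.0873 CPM on average in WT) and 1 of 10 in the frontonasal list (Prrx1) had this order. Of the 10 ventral forebrain genes, a tissue that also makes Lhx6 and Lhx8, 0 had it. The forebrain list summed to 300 and 316 CPM in the pair of libraries, within the WT range of 253 to 350 CPM. The forebrain regulator Nkx2-1 reached its highest WT level, 75.9 CPM, in neither of them but in WT male replicate 1. The place of the dissection cut in each embryo is not recorded in the labels. The part of the cut, and that of forebrain tissue, in this pattern was not tested.

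**Figure D3:**
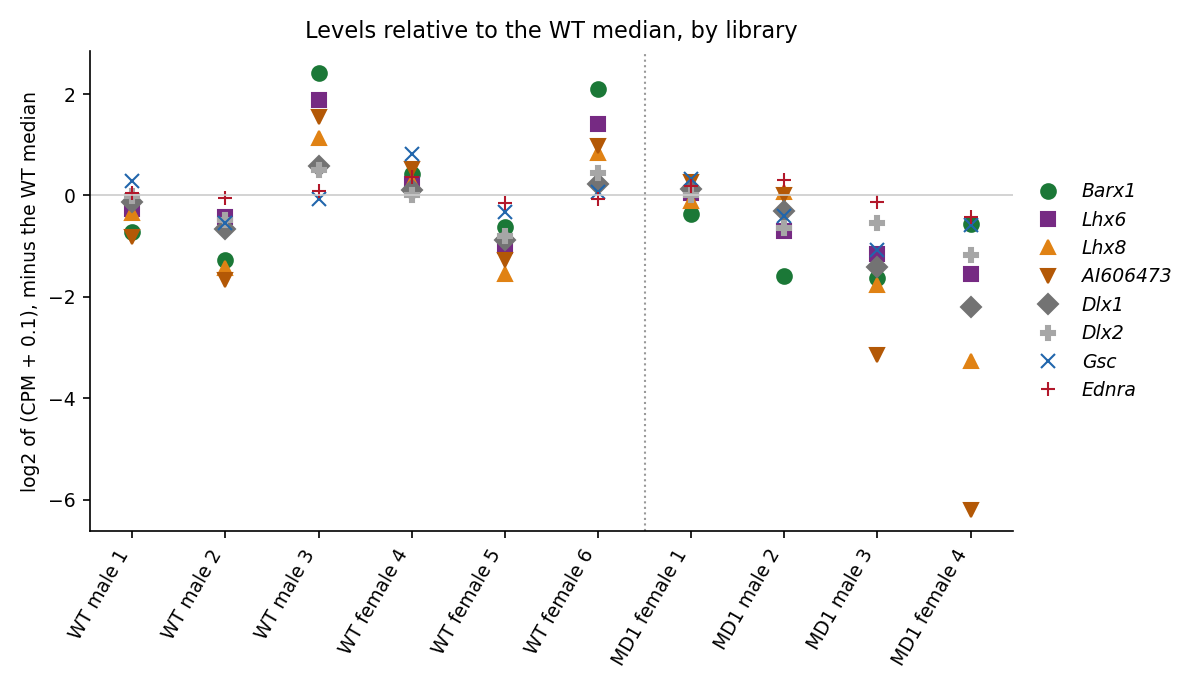
Levels by library (horizontal axis) of Barx1, Lhx6, Lhx8, its divergent neighbour AI606473, Dlx1, Dlx2, Gsc and Ednra, as log2 of CPM plus 0.1 less the WT median (vertical axis). The first 5 genes and Dlx2 peak in WT male 3 and WT female 6, while Ednra stays close to 0 and Gsc peaks in WT female 4.

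The genes most like each member over the 10 libraries were sought among the other 15451 tested genes by Pearson's r of log2 CPM, as a description in which all values come from the same libraries. For Lhx8 they were Frzb, which encodes a secreted Wnt inhibitor (r = 0.971), AI606473 (0.968) and Dlx1 (0.967). For Lhx6 they were Foxl2os (0.940), Dlx2 (0.937) and Fdft1 (0.922), and for Barx1 Cux2 (0.944), Xkr8 (0.911) and Coro1a (0.903). The genes nearest to Barx1 varied far less than it did, since Cux2 ran only from 13.0 to 20.3 CPM.

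Gsc did not peak in the same pair of WT libraries as the 3. Its Pearson's r with Barx1, Lhx6 and Lhx8 over WT libraries was 0.25, 0.21 and 0.53, against 0.92 to 0.95 among the 3. Over all 10 libraries it was closer to them by rank, with Spearman correlations of 0.61, 0.75 and 0.65, against 0.65 to 0.93 among the 3. Gsc measured 6.99, 3.94, 5.50, 10.2, 4.54 and 6.00 CPM in WT and 7.23, 4.29, 2.66 and 3.80 CPM in MD1. Its highest library was WT female replicate 4, and the groups overlapped, with MD1 male replicate 3 and MD1 female replicate 4 below every WT library. The log2 fold change was -0.40 (standard error 0.31, 95% interval -1.08 to 0.27, edgeR adjusted p = 0.632), and from -0.75 (without MD1 female replicate 1) to -0.20 (without WT female replicate 4) with each library left out. Gsc (ENSMUSG00000021095, 3 exon blocks) lies on the minus strand at chr12:104471209-104473330 and starts next to Gm10000, a divergent noncoding gene with 60 reads over all libraries. Nearest in pattern were Cybrd1 (r = 0.947), Wif1 (0.937), which encodes another secreted Wnt inhibitor, and Runx1t1 (0.936).

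Ednra had the smallest coefficient of variation of the 6 tested genes between WT libraries. It measured 81.9, 77.1, 84.1, 103, 71.8 and 75.8 CPM in WT and 91.0, 98.2, 72.5 and 59.4 CPM in MD1. MD1 female replicate 4 was the one library below the WT range. The log2 fold change was -0.03 (standard error 0.14, 95% interval -0.34 to 0.27, edgeR adjusted p = 0.938), so a change of 2-fold in the mean was outside the interval. Ednra (ENSMUSG00000031616, 8 exon blocks) lies on the minus strand at chr8:77663031-77724464. The noncoding gene 4933431K23Rik on the other strand shares 91 of its 5476 exon bases, 1.66%. Its nearest genes in pattern were Igf1 (r = 0.974), Rab22a (0.968) and Pik3ca (0.963).

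Edn1, the ligand, was on average in WT the least abundant of the 6 tested genes per transcript length. In WT it had 13, 36, 26, 14, 16 and 23 reads, or 1.40, 1.65, 1.06, 0.765, 1.51 and 1.68 CPM, and in MD1 it had 27, 5, 11 and 128 reads, or 1.28, 0.499, 2.66 and 9.73 CPM. MD1 female replicate 4 alone held more CPM than any other library by a wide margin, at 7.47 times the pooled WT level (95% interval 5.80 to 9.62, for counting error only). The other MD1 libraries lay within, below and above the WT range, in that order. The log2 fold change of 1.43 (standard error 0.61, 95% interval 0.10 to 2.76, edgeR adjusted p = 0.502) became -0.04 without that library. Edn1 (ENSMUSG00000021367, 5 exon blocks) lies on the plus strand at chr13:42301476-42307990.

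Ligand and receptor ran in opposite order at their extremes. MD1 female replicate 4 was highest for Edn1 and lowest for Ednra. WT female replicate 4 was lowest in WT for Edn1 and highest of all for Ednra, and MD1 male replicate 2 was lowest of all for Edn1 and next to the top for Ednra. The genes most like Edn1 were Jag1 (r = 0.987), a Notch ligand that is also on the proximal arch list, Nectin2 (0.982) and Mfge8 (0.979). Jag1 stood at 102 CPM in MD1 female replicate 4 and between 35.1 and 59.2 CPM in the other 9 libraries.

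Markers of other states moved with Edn1 in MD1 female replicate 4. The 11 genes of the hypoxia response list summed to 7970 CPM there, against 503 to 1550 CPM in WT and 597 to 1660 CPM in the other MD1 libraries. All 11 were higher in MD1 with a p under 0.05 before adjustment, 0 of them passed the adjusted threshold, and their median log2 fold change was 1.88. The 10 endothelial genes, a cell type that makes Edn1, summed to 949 CPM there, against 396 to 505 CPM in WT and 413 to 557 CPM in the rest of MD1. Of these 10, 9 were higher in MD1, 3 with a p under 0.05 before adjustment and 0 past the adjusted threshold, and no gene of either list was at 0 throughout. The 3 were Flt1, Pecam1 and Kdr, with log2 fold changes of 1.61, 0.59 and 0.53. Erg and Esam stood at 0.36 and 0.23, while Cdh5, Tek, Tie1, Emcn and Cldn5 lay between -0.20 and 0.11. The difference was thus not shared across the endothelial list. The part of either list in the Edn1 level was not tested.

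The other genes of endothelin signalling did not pass the test either. Of 13 listed, 12 were tested, 6 were higher and 6 lower in MD1, 0 passed the threshold, and the median log2 fold change was 0.01. Ligands and receptors were present beyond the pair above, with Edn3 at 13.0 ± 1.49 CPM in WT and 13.3 ± 1.62 CPM in MD1, and Ednrb at 17.9 ± 3.54 and 15.7 ± 5.25 CPM (SD, n = 6 and 4). Edn2 was next to absent, at 0.00764 CPM on average in WT and 0.0190 CPM in MD1. The converting enzyme gene Ece1 stood at 82.0 ± 5.34 and 84.8 ± 13.4 CPM. Gna11, for a G protein subunit that couples to the receptor, had the one p under 0.05 before adjustment, with 101 ± 6.17 CPM in WT and 78.3 ± 17.1 CPM in MD1 (log2 fold change -0.38, standard error 0.13, edgeR adjusted p = 0.496). Its partner Gnaq stood at 102 ± 3.75 and 108 ± 9.98 CPM.

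Genes that act below the receptor were present where Hand1 and Hand2 were not. Dlx5 measured 9.50 ± 1.68 CPM in WT and 12.4 ± 3.82 CPM in MD1, and Dlx6 measured 7.19 ± 2.20 and 8.07 ± 0.831 CPM (SD, n = 6 and 4), with edgeR adjusted p of 0.525 and 0.742. Both are also made in the nasal placodes, which belong to the FNP. Of the 14 distal arch genes, 12 were tested, 6 higher and 6 lower in MD1, 0 past the threshold and 0 with a p under 0.05 before adjustment, with a median log2 fold change of 0. Of the 10 proximal arch genes, 4 were higher and 6 lower, with 0 past the threshold and a median of -0.14. Only Hey1, a Notch target, had a p under 0.05 before adjustment among them (46.3 ± 4.99 CPM in WT, 62.2 ± 25.1 CPM in MD1, edgeR adjusted p = 0.502). Of 8 arch epithelium genes, 5 were tested and 0 passed, and Nkx2-6, a marker of pharyngeal endoderm, had 0 reads in every library.

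Hand1 was read in 3 libraries. In WT it had 1 read in male replicate 2 and 0 in each of the other 5, and in MD1 it had 26 reads in female replicate 1, 0 in both males and 93 in female replicate 4. That is 1.24 and 7.07 CPM in the libraries labelled MD1 female, against 0.0458 CPM in the WT library with 1 read. The ratios to the pooled WT level were 121 (95% interval 20 to 4980) and 695 (122 to 27700), with intervals that cover counting error only and that rest on that 1 read. Hand1 (ENSMUSG00000037335, 3 exon blocks) lies on the minus strand at chr11:57828705-57832818.

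Hand2 was read in the same pair of MD1 libraries only. It had 0 reads in all 6 WT libraries and in both MD1 males, 9 reads (0.428 CPM) in MD1 female replicate 1 and 10 reads (0.760 CPM) in MD1 female replicate 4. A count of 0 allows up to 3 reads, or 0.122 to 0.323 CPM in a single WT library, 0.299 CPM in MD1 male replicate 2 and 0.725 CPM in the shallow MD1 male replicate 3. The last of these limits is above the Hand2 level of MD1 female replicate 1 and just below that of MD1 female replicate 4. Against the limit for the pooled WT group, 3 reads or 0.0305 CPM, Hand2 was at least 14.0-fold higher in MD1 female replicate 1 and at least 24.9-fold higher in MD1 female replicate 4, bounds that take the 9 and 10 reads as they stand. From the lower 95% limits of those reads, 0.196 and 0.365 CPM, the folds are 6.41-fold and 11.9-fold. Hand2 (ENSMUSG00000038193, 2 exon blocks) lies on the plus strand at chr8:57320983-57324633. The opposite-strand gene Hand2os1 covers 461 of its 2351 exon bases, 19.6%, and had 3 and 16 reads in these libraries and 1 read each in WT female replicates 5 and 6. The library kit does not mark strand, so reads of the pair cannot be told apart where they overlap.

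Without the filter on low counts, Hand1 had a p of 0.000111 (adjusted p = 0.159) and Hand2 a p of 0.00362 (adjusted p = 0.503) in the edgeR test over 22864 genes, and neither passed. Among the 15452 genes that pass the filter, both libraries labelled MD1 female lay above the other 8 for 906, or 5.86%. That share does not cover Hand1, Hand2 or the other genes below the filter, such as Hoxb2, Gata4, Upk3b and most of the yolk sac list given below. The order itself was taken from Hand1 and Hand2. Beside Hand1 and Hand2, 1 gene each of the distal arch list (Dlx3) and the endothelin list (Plcb1) showed that order, and 0 of the proximal arch list. So did Hoxb2 of the 5 arch Hox genes, 4 of the 10 endothelial genes (Pecam1, Kdr, Flt1 and Esam) and 4 of the 11 hypoxia genes (P4ha1, Pdk1, Slc2a1 and Car9), and the part of those tissues and states in the Hand1 and Hand2 reads was not tested.

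The lists for mesothelium and yolk sac, drawn up for tissues from outside the face, moved with Hand1 and Hand2 in the libraries labelled MD1 female. In the mesothelium and body wall list, 5 of 10 genes (Upk3b, Wt1, Msln, Postn and Dcn) were highest in those libraries, and the list summed to 77.8 and 275 CPM there, 28.2 to 40.4 CPM in WT and 26.6 and 33.6 CPM in MD1 males. Upk3b, Wt1 and Msln did not pass the filter on low counts and reached at most 9.12, 1.44 and 0.304 CPM in MD1. Dcn and Postn were also read in every WT library, at 1.34 to 2.63 and 5.91 to 15.3 CPM. So were Tbx18 and Krt19, at 9.35 to 17.0 and 3.31 to 15.2 CPM, so the list is not read only in tissue from outside the face. Postn, for the matrix protein periostin, made up most of the 77.8 and 275 CPM. It stood at 46.0 and 183 CPM in the libraries labelled MD1 female and at 15.3 CPM or less elsewhere. In the yolk sac and liver list, 9 of 11 genes were highest in them, and the list summed to 367 and 92.6 CPM, against 1.14 to 30.3 CPM in WT and 1.79 and 1.93 CPM in MD1 males. Of these 9, only Afp and Apob passed the filter on low counts, so the share of 5.86% does not cover the rest. The main gene of the list, Afp, for alpha-fetoprotein, was at 239 and 68.4 CPM. Of the pair, MD1 female replicate 4 had more Hand1 and more of the mesothelium list, and the library labelled MD1 female replicate 1 had more of the yolk sac list.

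In the heart list, 2 of 12 genes (Gata4 and Gata6) were highest in both libraries, and the list summed to 3.66 and 14.3 CPM, against 1.37 to 5.48 CPM in WT. Nkx2-5, a defining factor of heart muscle, had 0 reads in WT and reached 0.0760 CPM at most in MD1, and the heart muscle troponin gene Tnnt2 reached 0.304 CPM in MD1 and 0.430 CPM in WT. The highest MD1 library exceeded the highest WT library for Gata6 (7.45 against 0.753 CPM), Actc1 (2.05 against 0.585), Tbx5 (2.17 against 1.32) and Gata4 (0.532 against 0.108). That also held for Myh7 and Tbx20, while Myl7, Myl4, Myh6 and Nppa went the other way. In the trophoblast list, 1 of 8 genes (Prl8a2, at most 3.38 CPM) was highest in both, and the list summed to 6.56 and 6.62 CPM, against 1.04 to 2.69 CPM in WT. The sympathetic list, for neurons that use Hand2, summed to at most 3.99 CPM in WT and 3.57 CPM in MD1. The part of any of these tissues in the Hand1 and Hand2 reads was not tested.

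**Figure D4:**
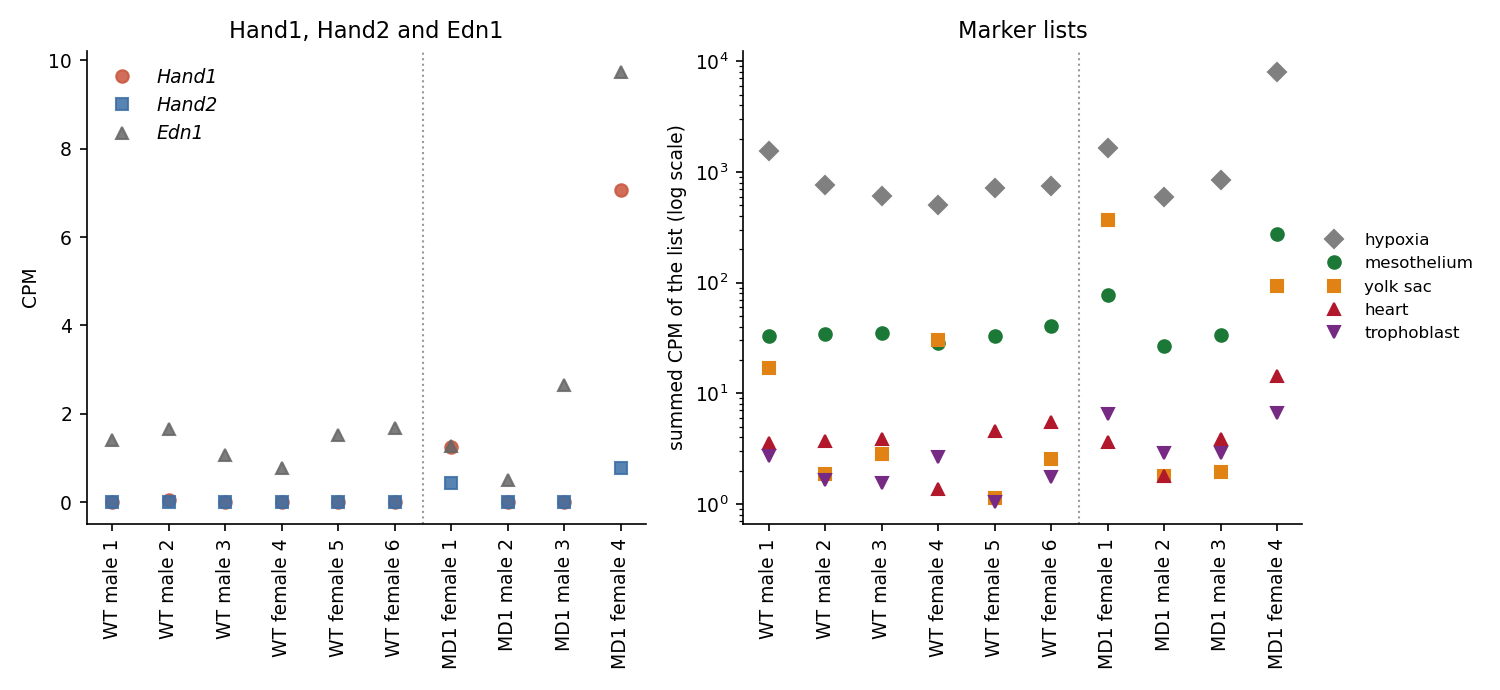
Left, CPM of Hand1, Hand2 and Edn1 (vertical axis) in the 10 libraries (horizontal axis). Right, summed CPM of 5 marker lists on a log scale in the same libraries; the mesothelium list reaches 77.8 and 275 CPM and the yolk sac list 367 and 92.6 CPM in the libraries labelled MD1 female, and the hypoxia list 7970 CPM in MD1 female 4.

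By labelled sex, 0 of the 6 tested members passed in males (where 0.0194% of genes did), in females (0.0129%) or in the difference between the sexes (0%). The group labelled MD1 female includes replicate 1, whose Ddx3y and Xist levels went against its label, so these are contrasts of labels. Barx1 had a log2 fold change of -2.80 in males and -1.55 in females (edgeR adjusted p = 0.999 and 0.423), and the difference, 1.25 (standard error 1.64), had an adjusted p of 0.761. In Lhx6 the values were -1.73 and -1.05 (0.999 and 0.486). Edn1 showed the largest difference, -0.04 in males and 2.05 in females, or a gap of 2.10 (standard error 1.21, edgeR adjusted p = 0.511). Without the library labelled MD1 female replicate 1, where MD1 female replicate 4 is the lone MD1 female and is assumed to vary like the other groups, Edn1 passed in females (log2 fold change 2.91, adjusted p = 0.0019) and in the difference (3.00, adjusted p = 0.0239). In that fit 34.1% and 22.9% of all tested genes passed as well.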

How the data were processed

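RNA sequencing libraries of 10 FNP samples were used, grouped by their labels into 6 WT and 4 MD1. Labels name separate samples and do not tie them to embryos or litters, so a p-value here speaks only of the spread among these samples. Per the study's methods, reads were trimmed (Trim Galore 0.4.4), aligned to GRCm38.p6 (HISAT2 2.0.5) and quantified per gene in SeqMonk by the authors; bcl2fastq is also named in the submitters' processing notes. The authors deposited raw counts and log2 RPKM values (scaled to library size and transcript length, zero counts replaced before the logarithm). Deposited columns of genotype means (a mean signal over the count columns) were not used in any test.

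Of 35591 rows, 27 had a symbol restored from the gene ID where it had become a date, and 49 repeated rows were dropped. Counts were filtered with filterByExpr (15982 genes, 15452 autosomal) and scaled by TMM in edgeR 4.0.16 (R 4.3.3, limma 3.58.1, DESeq2 1.42.0; Python 3.11.15, pandas 2.3.3, matplotlib 3.10.9 for tables and plots). MD1 was compared with WT by the quasi-likelihood test with no covariate, with Benjamini-Hochberg adjustment over all tested genes at 0.05; effects by labelled sex came from 1 model of 4 group means. Standard errors are the log2 fold change over the root of F. Intervals are 95% (exact Poisson for counts). On simulated counts of the same 15452 genes for this comparison, 78% of 2-fold increases and 56% of 2-fold decreases were called, 100% and 90% of 4-fold ones, and 0.0721% of unchanged genes. The changed genes were picked at random, so these shares need not hold for the members. Between WT libraries, Barx1, Lhx6 and Lhx8 had coefficients of variation of 103%, 80.9% and 68.7%, beside a median of 10.8% for tested genes.

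Depth was 4195119 to 24125084 counts per library. In all 45 pairs of libraries the counts differed by more than sampling noise (lowest chi-square per degree of freedom 3.93). Exons came from GENCODE M21, in which all 8 members have the coordinates of the table, and promoters from RefSeq. Named genes were the 8 members, Smchd1, the 3 genes most like each tested member, and genes of fixed marker lists (all of the arch and endothelin lists; in others those past the threshold or, with none, up to 3 by fold change and 3 by level). List genes singled out for being highest in particular libraries, the neighbouring genes AI606473, Gm10000, 4933431K23Rik and Hand2os1, and Ddx3y and Xist were named outside that rule, after their values were seen. So were the rest of the endothelium list and the heart list. The members and lists were chosen with earlier results of these data known. Alternatives covered the test, scaling, filter, chromosomes, a sex covariate, the replicate block and left-out libraries.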

Additional observations from a re-analysis of the deposited data

Results flagged for a closer look

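Hand1 in WT was marked because 1 library stood apart from the other 5, with 0.0458 CPM in WT male replicate 2 and 0 elsewhere. The value is a single read. By this rule about 1 in 20 groups of continuous values stand out by chance. With 0 in the other 5 libraries, any reads in the remaining library would be marked, so that rate does not apply here. Of the 15 groups of libraries checked (8 genes in 2 genotypes, less Hand2 in WT, which was 0 throughout) this was the only one marked.

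Hand1 was also marked because its MD1 libraries moved in opposite directions by labelled sex. Both libraries labelled MD1 female lay above the WT female mean, by 4.16 CPM on average, and both MD1 males lay below the WT male mean, a difference of -0.0153 CPM that comes from the same single WT read. Hand1 did not pass the filter on low counts, so the difference between the sexes was not tested. One of these libraries, MD1 female replicate 1, has Y-linked reads at the male level.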

How the results depend on the processing

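None of the tested members was called in the comparison of genotypes under any of the 20 alternatives, and Barx1, Lhx6, Lhx8 and Gsc stayed lower in MD1 in all 20, with adjusted p of at least 0.314 for Barx1. With each library left out, Edn1 ranged from -0.04 to 1.80 and Ednra from -0.15 to 0.10 (log2). Edn1 reversed to -0.04 without MD1 female replicate 4 and to -0.02 without both libraries labelled MD1 female. Ednra reversed to 0.04 without WT female replicate 4, 0.01 without MD1 male replicate 3, 0.10 without MD1 female replicate 4 and 0.08 without both libraries labelled MD1 female. The number of members with p under 0.05 before adjustment, 3 of 6, was 0 with limma-voom, 1 with limma on log2 RPKM (which moved the median of all genes by -0.10) and 0 without WT male replicate 3. The number of genes called in the whole table, 12, was 51 with DESeq2, 4 with limma on log2 RPKM, 7 without both libraries labelled MD1 female and 4 to 13 with each library left out, lowest without WT male replicate 2 or MD1 female replicate 1; the cause was not tested. Under the replicate block 0 genes were called in all, with Barx1 at -1.11, Lhx6 at -1.12 and Edn1 at 0.88 (log2). Replicate numbers did not pair the samples (correlations of deviations 0.00, -0.07, 0.05 and -0.12). In the model by labelled sex, the block left 1 residual degree of freedom and called 3 members in females, Edn1, Ednra and Lhx8, among 17.8% of all genes. Leaving out each library gave 0 to 1 members called in females, 0 to 1 in the difference (Edn1, when MD1 female replicate 1 was left out) and 0 in males. Depth limits what a count of 0 shows for Hand2: in MD1 male replicate 3, at 4195119 counts, it allows up to 0.725 CPM.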
